A study of Mus musculus with 2 samples.

Results

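Glycolysis and lactate handling in the embryonic mouse forebrain was described through 35 genes: the glucose transporters, the glycolytic enzymes and their isozymes, the lactate dehydrogenases and monocarboxylate transporters, the gate to the mitochondrion, and the hypoxia-linked genes Hif1a and Bnip3. The genes were taken from a list of names, and the list was chosen with earlier results of these data known. All 35 were found among the 43346 mouse genes of the deposited tables. The study sequenced total RNA longer than 200 nucleotides from forebrain of B6NCrl embryos at embryonic day 15.5, of mixed sex, healthy and untreated as far as the labels say. There was 1 group of 2 libraries, for which 10 ng of RNA was used and spike-in controls were added: replicate 1 was a pool of 78 embryos and replicate 2 a separate pool of 62, so the spread between libraries is that between pools and not between animals.

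Glycolysis splits glucose into pyruvate in a preparatory phase that consumes ATP and a payoff phase that returns it. Pyruvate is then either reduced to lactate by lactate dehydrogenase or carried into mitochondria and oxidised by the pyruvate dehydrogenase complex, which pyruvate dehydrogenase kinases switch off. Most steps have isozymes from separate genes that differ in regulation and in the tissue where they prevail, and dividing neural progenitors are known for high glycolytic activity, while neurons rely more on oxidation.

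Levels are TPM, a relative abundance of transcripts corrected for their length, given for replicate 1 and then replicate 2 or as mean ± SD of the libraries (n = 2). Expected counts, the estimated reads, summed to 38720511 and 35103430. With 2 libraries a two-sided exact sign-flip test cannot give a p below 0.5, and differences are read only against the spread of the libraries, with no test. The forebrain markers were present (Dlx1 highest at 240 ± 8.27 TPM), with those of neurons (Tubb3, 1509 ± 3.27) and radial glia (Fabp7, 1274 ± 101). Markers of other cells in the dissected tissue were also read, led by erythroid Hba-a2 (4853 ± 242), choroid plexus Ttr (546 ± 304), endothelial Cldn5 (75.1 ± 4.4), mesenchymal Col3a1 (69.9 ± 3.97), astrocytic Gja1 (60.5 ± 3.39), microglial C1qb (24.3 ± 1.44), muscle Acta1 (4.50 ± 1.88) and liver Apoa2 (2.50 ± 1.41), and no marker was at 0 reads. In both libraries 1 of 4 muscle markers reached 1 TPM, 1 of 3 liver markers and 3 of 5 astrocyte markers. All markers of the other lists did, as did 60.6% of protein-coding genes. In bulk tissue, fewer cells of a type and less RNA per cell cannot be told apart.

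Of the 35 genes, 34 reached 1 TPM in both libraries, where 34.4% of all mouse genes and 60.6% of the 21474 protein-coding genes did. A level of 100 TPM in both was reached by 12 of the 35, against 3.94% of all genes and 7.55% of protein-coding genes. The median of the 35 genes was 68.7 TPM, and that of the 13020 protein-coding genes that reached 1 TPM was 20.9. Together the 35 genes took 6194 and 6283 TPM (6239 ± 62.5), which was 0.619 and 0.628% of all TPM and rested on 248080 and 230409 estimated reads. The 5 most abundant genes, Gapdh, Pkm, Eno1, Ldha and Ldhb, held 63.3% of that sum, and each of them acts after triose phosphate has formed, in the payoff phase or between pyruvate and lactate. Ordered by level, only 5 of the 34 neighbouring pairs had library ranges that overlapped: Pfkl with Slc2a1, Pfkm with Hk1, Pfkfb3 with Pdk3, Eno3 with Hk2, and Pfkfb1 with Slc16a7. The order of the other neighbours was the same in both libraries.

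**Figure D1:**
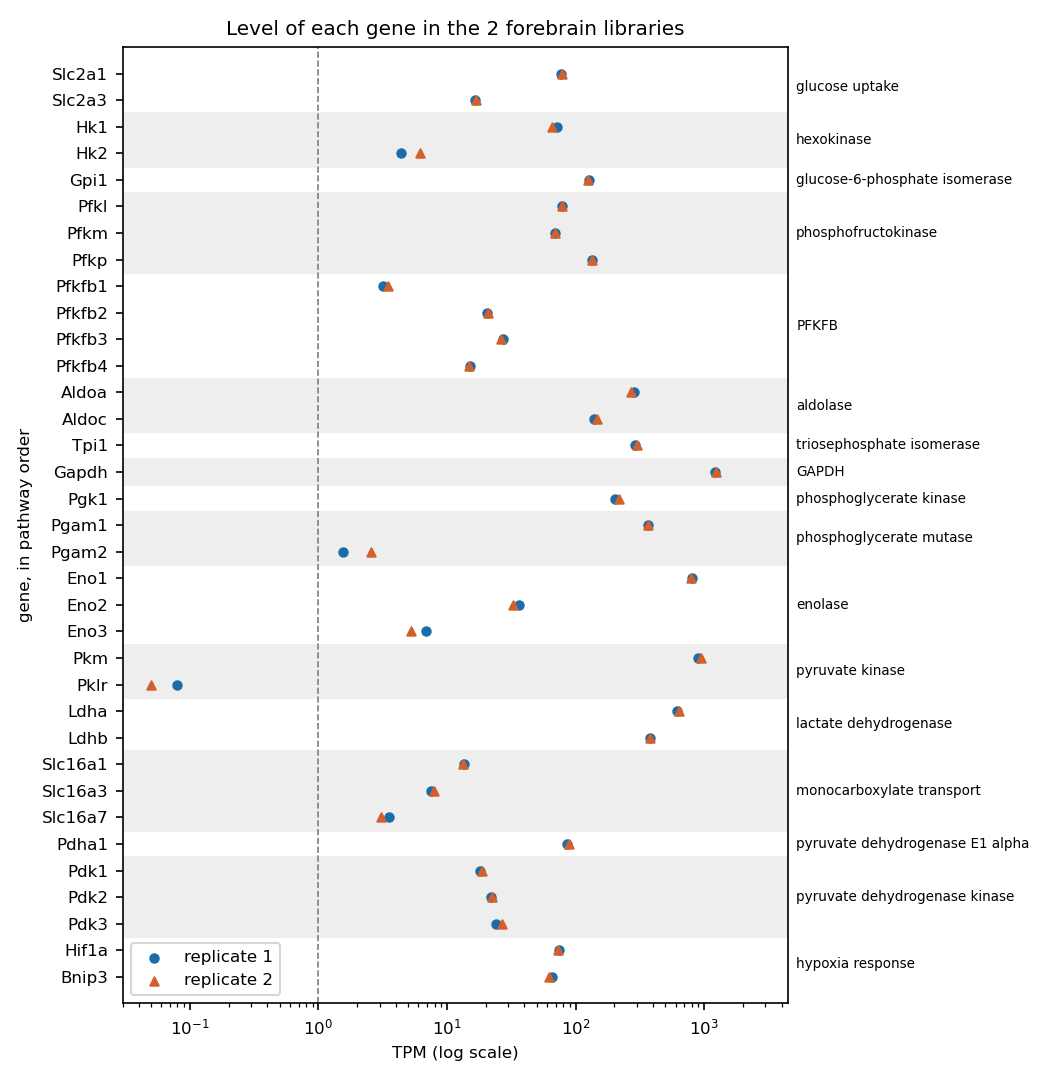
Level of each of the 35 genes in TPM on a log axis, in pathway order, with a circle for replicate 1 and a triangle for replicate 2; the dashed line marks 1 TPM. The libraries nearly coincide for most genes, Gapdh (1221 TPM), Pkm (924) and Eno1 (795) stand highest, and Pklr (0.0650) alone lies below the line.

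Pkm encodes the pyruvate kinase of most tissues outside liver and red cells and makes its M1 and M2 forms from a pair of mutually exclusive exons. The M1 form is constitutively active and typical of adult muscle and brain, and the M2 form is allosterically regulated and typical of embryonic and proliferating cells. The exons that set the forms apart are shown because the division of reads between them is a main result. Both are exon 9 of their transcript and 167 bases long, and lie on the plus strand of mm10, the M1 exon at chr9:59675029-59675195 in transcript Pkm-202 and the M2 exon at chr9:59675568-59675734 in transcript Pkm-201. Aligned base by base without gaps, they share 103 bases (61.7%) and differ at 64, which are in capitals.
M1 exon: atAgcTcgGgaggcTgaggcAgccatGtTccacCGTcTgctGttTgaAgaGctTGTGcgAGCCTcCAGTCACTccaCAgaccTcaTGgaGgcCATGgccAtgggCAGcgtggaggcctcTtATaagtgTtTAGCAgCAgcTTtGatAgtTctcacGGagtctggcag
M2 exon: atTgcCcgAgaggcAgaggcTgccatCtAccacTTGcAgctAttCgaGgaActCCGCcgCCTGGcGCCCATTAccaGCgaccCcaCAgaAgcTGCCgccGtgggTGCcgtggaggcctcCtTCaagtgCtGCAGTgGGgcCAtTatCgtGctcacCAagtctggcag
The transcripts were matched by identifier to a later annotation release, GENCODE M21. There the M1 transcript is 2041 bases long, against 2432 in the deposited table, while the M2 transcript has 2432 in both. The exon given for M1 therefore comes from another version of that transcript than the one quantified.

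Both forms of Pkm were abundant, and M2 was the higher in each library. Pkm as a whole (ENSMUSG00000032294.12; chromosome 9, 59656368 to 59679375, plus strand) stood at 902 and 945 TPM. M1 was at 395 TPM in replicate 1 and 357 in replicate 2, and M2 at 508 and 588. The forms' ranges did not overlap, and the ratio of M2 to M1 was 1.29 in replicate 1 and 1.65 in replicate 2. M2 thus made up 56.3 and 62.2% of Pkm transcripts (59.2% ± 4.19, n = 2). The difference of 5.92 percentage points between the libraries exceeded the deposited uncertainty of the division of reads within each, a posterior SD of 0.558 points in replicate 1 and 0.591 in replicate 2. That SD covers how reads were assigned and not how pools vary. Choroid plexus markers, summed, were at 820 and 365 TPM and liver markers at 1.54 and 9.63, so both also differed between the pools, and their part in the Pkm difference was not tested. Pklr, the pyruvate kinase of liver and red cells (chromosome 3, 89136142 to 89146784), had 5.05 and 3.02 estimated reads, 0.0800 and 0.0500 TPM. Pklr held 0.00886 and 0.00529% of the step in a tissue whose erythroid markers summed to 11329 and 10382 TPM. Of Pklr's exon bases, 22.0% overlap Hcn3 on the opposite strand (28.3 and 24.6 TPM), and the strand setting of the counting is not given.

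**Figure D2:**
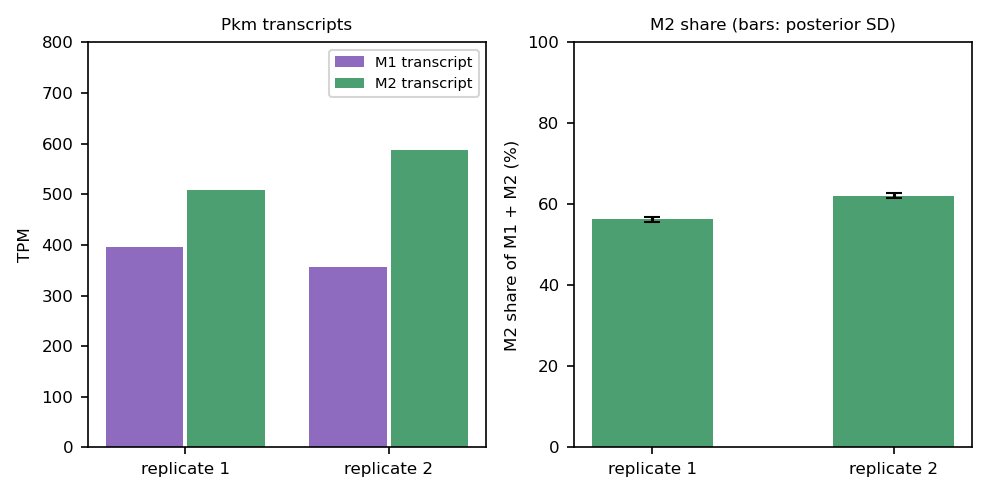
Left, TPM of the M1 and M2 transcripts of Pkm in each library; right, the M2 share of their sum in percent, with error bars of 1 posterior SD from the deposited estimates. M2 stands above M1 in both libraries, with a share of 56.3% in replicate 1 and 62.2% in replicate 2.

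Slc2a1 led the transcripts for glucose entry and Hk1 those for its phosphorylation, and transport and enzyme activity were not measured. Slc2a1, the transporter GLUT1 of the blood-brain barrier and of many dividing cells (ENSMUSG00000028645.6; chromosome 4, 119108711 to 119137983), was at 76.9 and 78.8 TPM. Slc2a3, the high-affinity neuronal transporter GLUT3, was at 16.4 and 16.9 TPM. The 4 transporters considered summed to 100 ± 1.03 TPM, of which Slc2a1 held 77.6% ± 0.569 and Slc2a3 16.6% ± 0.139. The insulin-responsive Slc2a4 held a further 5.72% ± 0.658, and Slc2a1 exceeded Slc2a3 4.68-fold. Endothelial markers, which label a cell type known for Slc2a1, summed to 143 and 147 TPM, and their part in the level of Slc2a1 was not tested.

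Hexokinase commits glucose to the cell by phosphorylation. Hk1, the form prevalent in brain and bound to mitochondria (chromosome 10, 62268855 to 62379908), was at 71.8 and 65.5 TPM and held 84.8% ± 1.91 of the step. Hk2, the inducible form of muscle and of many proliferating cells, was at 4.37 and 6.17 TPM, on 305 and 363 reads. Hk1 was far above Hk2 in both libraries, 13.2-fold from the mean log2 ratio of 3.72 ± 0.45. Within Hk2, a short processed transcript, Hk2-202, took 49.4 and 54.5% of the TPM on 25.0 and 35.7 reads, although all of its 594 bases are shared with coding exons. Counting protein-coding transcripts alone, Hk2 stood at 2.21 and 2.81 TPM. Gpi1, the isomerase that turns glucose phosphate into fructose phosphate and has no isozyme here, was at 127 and 124 TPM (126 ± 2.05).

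Phosphofructokinase, the main control point of glycolysis, was the step at which the leading isozyme depended on which transcripts were counted. Over all transcripts Pfkp, the platelet form that is also expressed in brain, led with 133 and 135 TPM. The liver form Pfkl was at 78.7 and 78.1 TPM and the muscle form Pfkm at 69.4 and 68.7. The ranges did not overlap, and Pfkp held 47.6% ± 0.386 of the step, Pfkl 27.9% ± 0.182 and Pfkm 24.6% ± 0.204. Of the TPM of Pfkp, 18.8 and 18.0% lay on protein-coding transcripts, against 98.1 and 97.0% for Pfkl and 100% in both for Pfkm. On coding transcripts alone the order was Pfkl (44.9%), Pfkm (40.6%) and Pfkp (14.5%), with Pfkp at 25.0 and 24.2 TPM. The largest contributor to the Pfkp sum was Pfkp-210, annotated as a retained intron transcript of 702 bases (chromosome 13, 6598295 to 6602811, minus strand), at 63.0 and 61.8 TPM. It rested on 888 and 801 reads, and 258 of its bases (36.8%) are shared with coding exons of Pfkp. Pfkp shares 5.58% of its exon bases with Pitrm1 on the opposite strand (30.0 and 32.9 TPM), none of them within Pfkp-210. By reads without length correction Pfkl also led, with 41.1% of reads in replicate 1 (95% Wilson interval 40.4 to 41.9) and 40.2% in replicate 2 (39.4 to 41.0). The libraries gave nearly the same total for Pfkm and divided it differently between its transcripts: Pfkm-201 was at 51.1 and 35.8 TPM and Pfkm-202 at 18.3 and 32.9, with a posterior SD of 285 reads for each in replicate 1 and 246 in replicate 2.

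The bifunctional PFKFB enzymes make and degrade the fructose bisphosphate that activates phosphofructokinase. Pfkfb3, the form with the strongest kinase activity, was highest at 27.4 and 26.4 TPM (40.8% ± 0.727 of the family). Pfkfb2, the heart form, followed at 20.8 ± 0.354 TPM, Pfkfb4, first described in testis, at 15.2 and 14.8, and Pfkfb1, the liver form, at 3.19 and 3.46. Over all transcripts the 4 genes kept this order in both libraries without overlap. On coding transcripts alone Pfkfb4 (15.2 and 14.8 TPM) stood above Pfkfb2 (11.0 and 14.5). Only 53.6 and 69.1% of the TPM of Pfkfb2 lay on coding transcripts, and Pfkfb2-205, annotated for nonsense-mediated decay, was at 5.02 TPM in replicate 1 and 1.57 in replicate 2, while the coding Pfkfb2-202 was listed at 0 and 3.20. The 4505 bases of Pfkfb2-205 are 99.2% shared with coding exons. Tigar, a phosphatase of the same fructose bisphosphate and no member of the family, was at 5.27 and 4.61 TPM.

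Aldolase and triosephosphate isomerase complete the preparatory phase. Aldoa, the ubiquitous and muscle aldolase (chromosome 7, 126795234 to 126800751), was at 286 and 271 TPM. Aldoc, the brain aldolase and a marker of astrocytes in the adult, was at 138 and 146. Aldoa exceeded Aldoc 1.96-fold in TPM, and its share of the step was 67.4 and 64.9% (66.1% ± 1.75). Of the 5 astrocyte markers 3 reached 1 TPM in both libraries, beside 60.6% of protein-coding genes. The 5 ran from Gja1 at 60.5 ± 3.39 TPM down to Gfap at 0.750 ± 0.0283 and Aqp4 at 0.705 ± 0.233. They summed to 96.3 and 95.5 TPM, most of it from Gja1 (58.1 and 62.9). Their part in the level of Aldoc was not tested. Tpi1, the isomerase that feeds both trioses into the payoff phase, was at 290 and 300 TPM (295 ± 7.17).

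The payoff phase held the most abundant transcripts. Gapdh (ENSMUSG00000057666.14; chromosome 6, 125161715 to 125166467, minus strand), which oxidises the triose phosphate, was at 1210 and 1232 TPM and ranked 54 among protein-coding genes. Of this, 735 and 751 TPM fell on Gapdh-208, a processed transcript of 483 bases that is 100% shared with coding exons and rested on 6602 and 6204 of the 21199 and 19767 reads. On coding transcripts alone Gapdh was at 467 and 470 TPM, below Pkm (902 and 945), Eno1 (778 and 772) and Ldha (612 and 632), so the top place of Gapdh also depended on how reads were divided among its transcripts. Pfkp and Gapdh were the members with under 50% of TPM on coding transcripts in both libraries, while 26 of the 35 had 90% or more.

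Pgk1, the kinase of an ATP-yielding step (chromosome X, 106187100 to 106203699), was at 204 and 219 TPM. Its copy Pgk1-rs7 was lower in replicate 2, at 35.5 and 27.2 TPM. The sum of Pgk1 and the copy was 239 and 246 TPM, a log2 difference of 0.04 against 0.10 for Pgk1 alone. Pgam1, the phosphoglycerate mutase of brain and most tissues, was at 366 and 366 TPM and held 99.4% ± 0.193 of the step. Its pseudogene Pgam1-ps2 was listed at 51.6 and 62.5 TPM. The sum of Pgam1 and this pseudogene was 418 and 429 TPM, a log2 difference of 0.04 against 0.00 for Pgam1 alone. If these copies are close in sequence to the parent genes, which was not checked here, the division of reads between them is uncertain. Pgam2, the muscle mutase, was at 1.56 and 2.57 TPM on 27.0 and 41.0 reads.

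Enolase transcripts were almost entirely those of Eno1. Eno1, the ubiquitous alpha enolase (chromosome 4, 150236721 to 150248879), was at 798 and 792 TPM, 94.7% ± 0.463 of the step. Eno2, the gamma enolase used as a marker of mature neurons, was at 36.0 and 32.7 TPM, and Eno3, the muscle form, at 6.89 and 5.26. Eno1 exceeded Eno2 23.2-fold (mean log2 ratio 4.53 ± 0.09) in libraries where the neuronal markers summed to 2851 and 2819 TPM. Most of that sum came from Tubb3 (1512 and 1507), and the lowest of these markers, Rbfox3, was at 42.0 and 46.8 TPM. Counting coding transcripts alone lowered Eno2 further, to 23.5 and 19.4 TPM, and 26.9 and 28.0% of its TPM lay on the retained intron transcript Eno2-203.

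**Figure D3:**
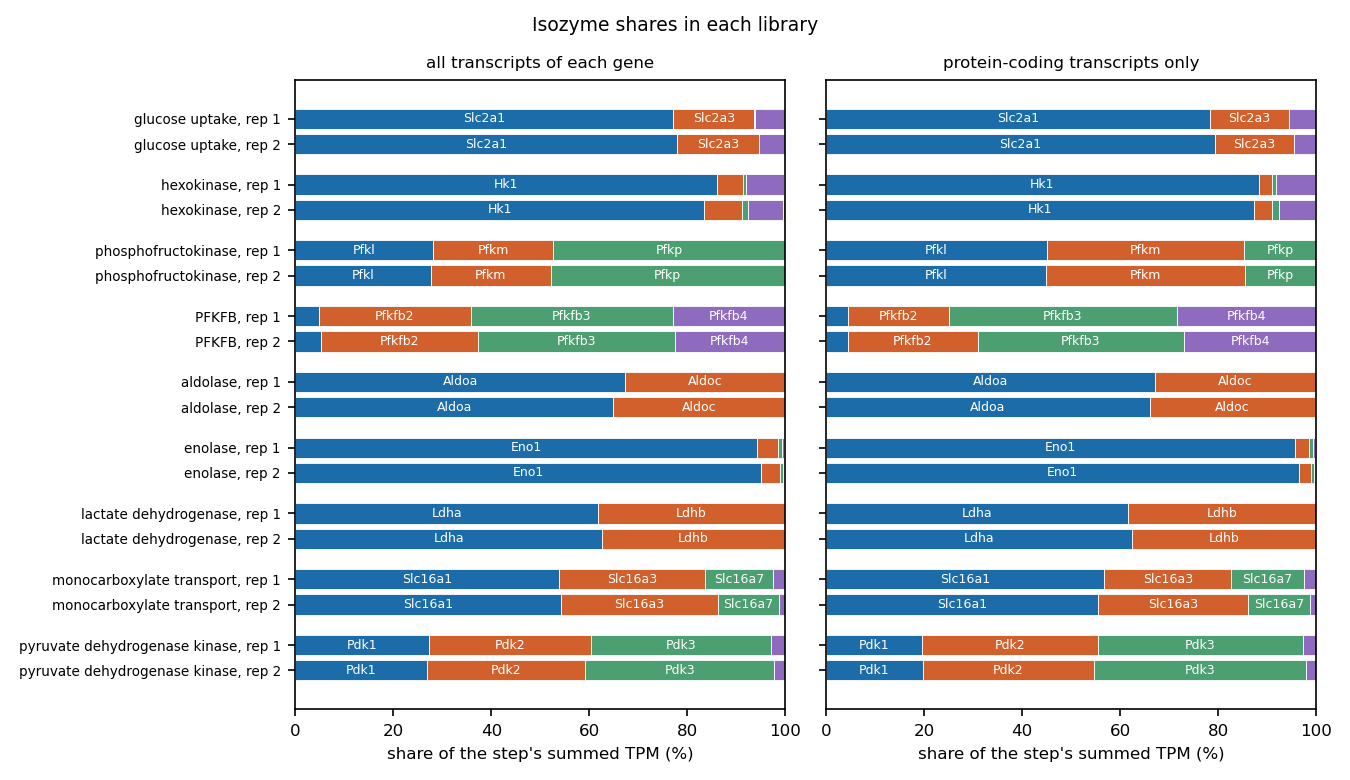
Share of each isozyme in the summed TPM of its step, in percent, with 1 bar per library; the left panel counts all transcripts of a gene and the right panel protein-coding transcripts only, and segments under 9% are not named. Both libraries have the same leading isozyme at each step, and phosphofructokinase is the step whose largest segment changes between the panels, from Pfkp (47.6%) to Pfkl (44.9%).

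Lactate dehydrogenase was the most abundant step after that of Gapdh, at 1007 ± 13.5 TPM, and on coding transcripts alone it stood above all other steps considered, at 1002 TPM. Ldha, whose subunit favours the making of lactate (ENSMUSG00000063229.10; chromosome 7, 46841475 to 46855627), was at 616 and 636 TPM. Ldhb, whose subunit favours the oxidation of lactate and prevails in heart and adult neurons, was at 381 and 380 (chromosome 6, 142490249 to 142507957). Both subunits were thus abundant, with Ldha 1.65-fold higher (log2 0.72 ± 0.04) and ranges that did not overlap. The share of Ldha was 62.2% ± 0.620 in TPM, 62.0% on coding transcripts and 66.8% by reads. The pseudogene Ldha-ps2 was listed at 0.610 and 1.39 TPM, far below Ldha.

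The monocarboxylate transporters, which move lactate across the plasma membrane, were scarce beside the dehydrogenases, at 24.9 ± 0.495 TPM in sum. Slc16a1, the widespread transporter MCT1, was at 13.6 and 13.3 TPM and held 54.1% ± 0.336 of the step. Slc16a3, the MCT4 of lactate-exporting cells, was at 7.53 and 7.87 TPM, and Slc16a7, the high-affinity neuronal MCT2, at 3.54 and 3.06. The order was the same in both libraries. Bsg, the chaperone that brings MCT1 and MCT4 to the membrane and serves other partners too, stood at 604 and 570 TPM, and Emb, the chaperone of MCT2, at 9.35 and 5.92.

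At the gate to oxidation, Pdha1, the catalytic alpha subunit of pyruvate dehydrogenase (chromosome X, 160122209 to 160138413), was at 85.7 and 88.3 TPM. The kinases that inactivate it were spread over 3 genes rather than led by 1: Pdk3 was at 24.1 and 26.8 TPM, Pdk2, the most widely expressed, at 21.9 and 22.5, and Pdk1, known as a hypoxia-induced gene, at 17.9 and 18.6. Pdk3 held 37.6% ± 1.36, Pdk2 32.8% ± 0.605 and Pdk1 27.0% ± 0.267. The ranges did not overlap, yet by reads the order turned and Pdk1 led with 41.2 and 41.4%. On coding transcripts the order by TPM was kept, with Pdk3 at 42.6%, Pdk2 at 35.4% and Pdk1 at 19.7%. Among the isozymes outside the list, Pgk2 and Pdha2, both testis forms, had 0 reads in both libraries, which at 3 reads allows up to 0.0859 and 0.0934 TPM for Pgk2 and 0.0569 and 0.0619 for Pdha2.

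Hif1a, the oxygen-labile subunit of the hypoxia-inducible factor and a regulator of many glycolytic genes (chromosome 12, 73901375 to 73947530), was at 74.3 and 73.4 TPM. Bnip3, a mitophagy receptor induced by that factor (chromosome 7, 138890836 to 138909519), was at 65.3 and 61.6 TPM. All 9 genes of a list of factor subunits and regulators reached 1 TPM, from the prolyl hydroxylase Egln2 at 89.5 ± 0.665 TPM to the alternative subunit Epas1 at 3.31 ± 0.113. Hif1a exceeded Epas1 22.3-fold. Of 10 other hypoxia-response genes 9 reached 1 TPM, with Bnip3l highest at 464 ± 4.75 and Car9, a carbonic anhydrase induced by hypoxia, lowest at 0.160 and 0.330. Both counts stand beside the 60.6% of protein-coding genes that reached 1 TPM in both libraries. Bnip3l exceeded Bnip3 7.31-fold over all transcripts, but only 12.7 and 12.4% of its TPM lay on coding transcripts, where it stood at 58.3 and 57.7 TPM against 63.9 and 58.5 for Bnip3. The factor's protein is controlled mainly by its stability, which RNA levels do not measure.

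The factor binds DNA at the core ACGTG or GCGTG, so the start sites of the listed genes were searched for these letters on either strand. The windows came from RefSeq (GRCm38.p6), 250 bases before to 50 after each annotated start, and were at hand for 33 of the 35 genes. A palindrome CACGTG counts as 2 overlapping matches of ACGTG. At any of their starts, 28 of 33 genes (84.8%) held a match, against 52.3% of 17492 protein-coding genes, and 19 (57.6%) held ACGTG, against 23.2%. Genes with more annotated starts have more windows. Window by window the shares were 71.7% of 53 against 49.3% of 21263 for either motif and 43.4 against 20.9% for ACGTG, with a median G and C content of 59.0% in the listed genes' windows and 56.3% in all. Ldha, with 7 matches, had the most, and Bnip3, Hk1 and Slc16a1 had 5 each, while Eno2, Gpi1, Pgam2, Pklr and Tpi1 had none in these windows. The 250 bases before the start are printed for Ldha, the member with the most matches, and for Bnip3, with the matches in capitals, each read toward its gene. The Ldha sequence lies at chr7:46845554-46845803 on the plus strand and that of Bnip3 at chr7:138909507-138909756 on the minus strand.
Ldha: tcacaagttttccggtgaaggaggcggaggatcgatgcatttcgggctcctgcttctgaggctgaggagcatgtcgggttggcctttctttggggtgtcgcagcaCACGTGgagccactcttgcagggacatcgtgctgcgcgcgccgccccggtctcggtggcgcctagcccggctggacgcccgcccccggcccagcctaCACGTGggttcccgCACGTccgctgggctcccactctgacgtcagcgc
Bnip3: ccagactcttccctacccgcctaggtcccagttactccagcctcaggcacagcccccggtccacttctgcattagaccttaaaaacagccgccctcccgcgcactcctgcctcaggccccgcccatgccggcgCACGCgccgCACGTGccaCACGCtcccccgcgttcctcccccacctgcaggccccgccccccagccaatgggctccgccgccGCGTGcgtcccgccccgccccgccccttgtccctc
Both sequences hold 5 matches before the start, some of them overlapping. A match is a description of letters and not evidence of binding, which was not measured here.

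The pathways that take up or branch from the products of glycolysis were measured beside it. Each count of genes at 1 TPM below stands beside the 60.6% of protein-coding genes that reached it in both libraries. All 17 genes of the tricarboxylic acid cycle, which oxidises the acetyl group made from pyruvate, reached 1 TPM, with a list median of 162 TPM, from Mdh2 (459 ± 0.368) to Suclg2 (16.8 ± 0.375). The remaining genes of pyruvate entry and its dehydrogenase complex ran from the carrier subunit Mpc1 (256 ± 6.65) to Pdpr (10.5 ± 1.41), with a median of 50.2. The branches off glycolysis were all measured: 7 of 7 pentose phosphate genes, from Taldo1 (301 ± 2.21) to Rpia (2.88 ± 0.0636), and 5 of 5 genes of the serine branch, from Phgdh (158 ± 3.75) to Shmt1 (16.2 ± 0.283). The 9 genes of the shuttles that carry NADH electrons into mitochondria ran from Mdh1 (385 ± 3.90) to Gpd1 (1.88 ± 0.396). Of 7 genes of gluconeogenesis, the liver and kidney pathway that runs back to glucose, 3 reached 1 TPM, beside the 60.6% of protein-coding genes that did. Its highest was Pcx, which also refills the citric acid cycle, at 22.5 ± 1.36, and Pck1 had 0 reads in both libraries, which at 3 reads allows up to 0.0739 and 0.0804 TPM. Of 11 glycogen genes 10 reached 1 TPM, from brain phosphorylase Pygb (80.0 ± 3.92) to the liver synthase Gys2 at 0.0200 in both.

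**Figure D4:**
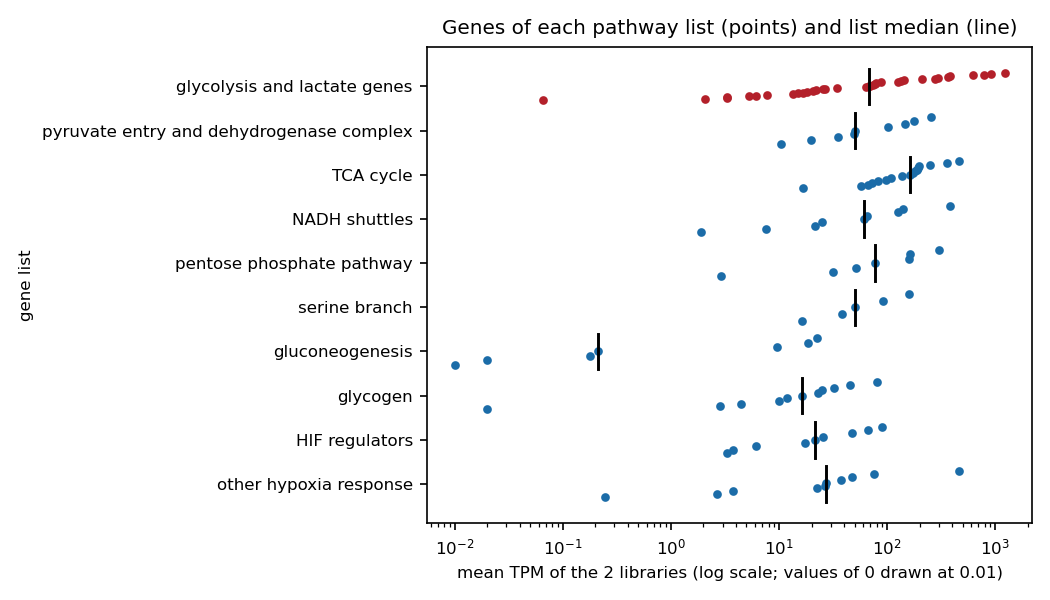
Mean TPM of the 2 libraries on a log axis for each gene (points) of the glycolysis and lactate list (red) and of 9 neighbouring lists (blue), with the list median as a black line and values of 0 drawn at 0.01. Of the lists drawn, the tricarboxylic acid cycle has the highest median (162 TPM), the glycolysis and lactate genes lie at 68.7, and gluconeogenesis at 0.210. The glycolysis and lactate list also holds minor isozymes, transporters and regulators. Its 9 payoff-phase genes alone have a median of 211 TPM and its 9 preparatory-phase genes 126, which are not drawn apart.

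Between the pools the listed genes differed little. Ratios of replicate 2 over replicate 1 were taken on estimated reads scaled by TMM, for genes with 10 or more reads in sum, and counted past 1.2-fold. Of the 34 listed genes that passed this filter (Pklr did not), 2 were past 1.2-fold and both were higher in replicate 2, where 25.9% of 19165 genes were past it in either direction and 12.2% in that direction. None of the 34 was past it toward replicate 1, where 13.7% of all genes were. The 2 genes were Hk2, with a log2 ratio of 0.39 (95% exact interval for counting error 0.17 to 0.62), and Pgam2, with 0.74 (0.01 to 1.5). Both rest on under 1000 reads. Of the 28 listed genes with 1000 or more reads 0 were past 1.2-fold, where 2.81% of 9680 such genes were. This count does not set the listed genes apart from other genes of that depth. The furthest of the 28 was Pdk3 at 0.17. The median absolute log2 ratio was 0.06 for the listed genes and 0.11 for all genes that passed, and 0.048 against 0.062 at 1000 reads or more. Skeletal muscle markers, which label the tissue where Pgam2 prevails, summed to 6.70 and 3.45 TPM, most of it from Acta1 with 182 and 91 reads, and their part in the difference of Pgam2 was not tested. All 4 choroid plexus markers were past 1.2-fold toward replicate 1 and all 3 liver markers toward replicate 2, and their part in the difference of Hk2 was not tested. Scaled by spike-in totals, the median ratio of all genes moved to 0.20, and 9 of the 34 listed genes were past 1.2-fold, where 41.4% of all genes were. Past 1.5-fold under TMM lay 1 listed gene, Pgam2, where 11.3% of all genes did.

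**Figure D5:**
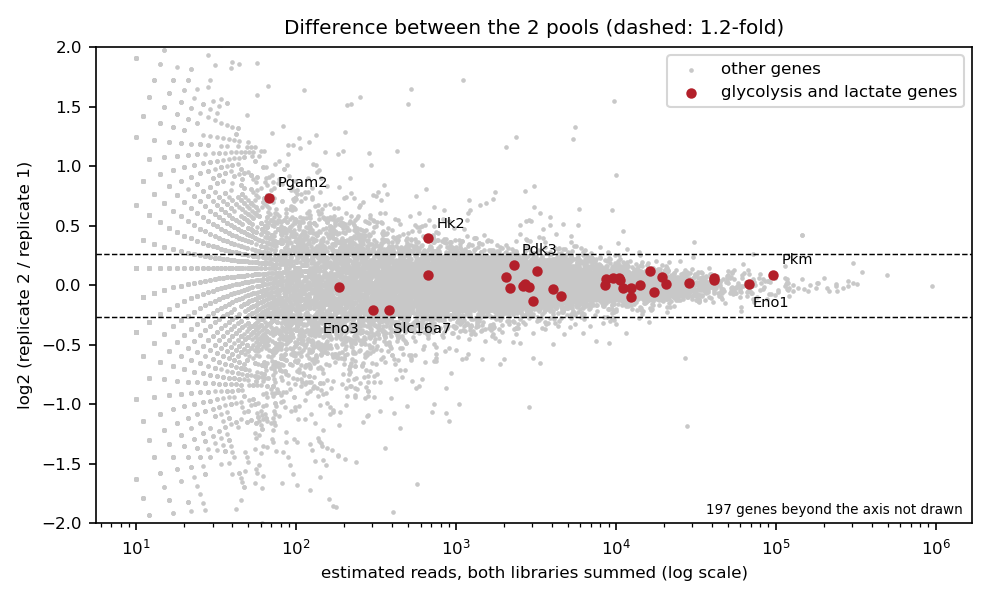
Log2 ratio of replicate 2 over replicate 1 (TMM scaling) against the estimated reads of both libraries summed, on a log axis, with the 34 listed genes in red and other genes in grey; dashed lines mark 1.2-fold and 197 genes beyond the axis are not drawn. Hk2 (0.39) and Pgam2 (0.74) lie above the upper line, both at low reads, and the abundant genes Pkm (0.09) and Eno1 (0.01) lie near 0.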

How the data were processed

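Total RNA was sequenced in 2 libraries of 1 group. Expected counts, as deposited, are estimated reads per gene or transcript, with shared reads divided among transcripts. The deposited TPM scale these by effective length over all features, spike-ins included. The other deposited values used are posterior SDs of transcript reads. Genome mm10 and annotation GENCODE M4 are named per the file headers and deposited notes; aligner, quantifier and strand use: not given in the sources used here. Coordinates, transcript types and exons come from GENCODE M21 by identifier without version (276 of 276 transcripts matched), and promoters from RefSeq.

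Isozyme shares are a gene's TPM over its step. Ratios used rounded expected counts with 0.5 added and TMM factors (edgeR 4.0.16, R 4.3.3), tested on simulated data. Alternatives were DESeq2 1.42.0 size factors, spike-in totals, no count filter, posterior means, reads without length correction, coding transcripts only, other thresholds and single libraries. Intervals and limits of 3 reads cover counting error only. Named were all listed genes, other isozymes at 5% or more of a step, the highest and lowest gene of each neighbouring list, the highest marker of each list, and opposite-strand genes and copies at 1 TPM. Of the genes this rule names, 1 is not reported here. Members and lists were chosen with earlier results of these data known. Figures used matplotlib 3.10.9, and tables pandas 2.3.3 in Python 3.11.15.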

Additional observations from a re-analysis of the deposited data

How the results depend on the processing

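The summed TPM of the listed genes was 6605 when rescaled over mouse genes and 6111 by posterior means. Past 1.2-fold lay 9 listed genes under spike-in scaling (41.4% of all genes), and 1 lay past 1.5-fold (11.3%). The shares that follow are those of the isozyme that led by TPM. By posterior means they became 75.9% for glucose uptake, 99.9% for pyruvate kinase and 52.1% for monocarboxylate transport. By reads without length correction they were 72.8% for glucose uptake, 90.8% for hexokinase, 31.4% for phosphofructokinase, 43.4% for PFKFB, 62.1% for aldolase, 99.8% for phosphoglycerate mutase, 66.8% for lactate dehydrogenase, 70.8% for monocarboxylate transport and 29.5% for pyruvate dehydrogenase kinase. On coding transcripts alone they were 78.9% for glucose uptake, 87.8% for hexokinase, 14.5% for phosphofructokinase, 44.4% for PFKFB, 96.1% for enolase, 56.1% for monocarboxylate transport and 42.6% for pyruvate dehydrogenase kinase. Pfkp no longer led under either of these: Pfkl did, with 44.9% on coding transcripts. By reads Pdk1 led in place of Pdk3. In the single libraries the M2 share of Pkm was 56.3 and 62.2%, and 34 genes reached 1 TPM in each. No paired analysis was possible because there was only 1 group. Depth limits Pklr, Pgam2 and Pfkfb1, and the values of Pfkp, Gapdh, Hk2, Pfkfb2 and the Pfkm transcripts also depend on how reads were divided among transcripts.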
